A study of Homo sapiens with 18 samples.

Results

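In ChIP-seq, chromatin bound by an antibody is pulled down and its DNA sequenced, and here it mapped RNA polymerase II (Pol II) and its form phosphorylated at serine 2 of the C-terminal domain repeat (Ser2P) in control cells. The comparison takes 4 of the 18 libraries of the series, 2 for Ser2P and 2 for Pol II, and asks where protein-coding genes carried a Ser2P peak in both Ser2P libraries and no Pol II peak in either Pol II library. All 4 libraries came from HCT116 INTS11-AID cells and are labelled Control. HCT116 is a human colon cancer cell line. In INTS11-AID cells the endonuclease subunit of the Integrator complex carries an auxin-inducible degron tag, so the tag is shared by both antibodies and no untagged cells enter the comparison. No source used here says whether the line is 1 clone. The labels describe 14 h without serum in 1 treatment text for all samples, which does not say which library received which agent. A further Pol II Control library without a replicate number and 2 Control libraries for phosphorylated tyrosine 1 (Tyr1P) were read beside the result and did not enter the rule.

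Pol II carries a long C-terminal tail of repeated heptads, and the phosphates on this tail change as the enzyme moves along a gene. Near the start the tail is phosphorylated mainly at serine 5 and serine 7, while serine 2 is phosphorylated by the kinases of P-TEFb, CDK12 and CDK13 as elongation proceeds. Ser2P is best known for its rise towards the end of genes, where it is bound by factors that cleave and polyadenylate the transcript and release the polymerase. A Ser2P signal can lie only where Pol II is present, so a Ser2P peak without a Pol II peak means that the second antibody gave no called peak there, not that the enzyme was absent.

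Peaks were read by their summit, the base of highest signal. An edge summit lay no more than 1 kb from the start or end of a coding gene, an interior summit lay inside a gene of at least 2 kb and more than 1 kb from every end, and a flank summit lay outside all protein-coding genes and up to 5 kb from an end. Of 19974 protein-coding genes on chromosomes 1 to 22 and X, 15813 had a known strand, which divided edges into starts and ends and flanks into upstream and downstream. For any 1 gene, a summit counted only for the nearer end. End and downstream calls also needed no gene start, and no gene of unknown strand, within the same distance of the summit. Upstream calls needed no gene end and no gene of unknown strand there. Start calls had no such condition, so these sides were not called by equal rules. The 2 Ser2P lists held 37013 and 15270 peaks after removal of peaks shared with either input, and the 2 Pol II lists held 22489 and 27169. Peak number did not separate the antibodies, with a Ser2P to Pol II ratio of 1.05 (two-sided exact permutation p = 1). Depth estimated from the lists was 13.6 and 3.30 fragments per kb for Ser2P and 2.95 and 5.74 for Pol II, so the 2 Ser2P libraries differed more in depth than the 2 Pol II libraries. Class shares, side ratios and gene counts were therefore repeated with all lists at the length of the shortest, 15270 peaks, ranked by the deposited −log10 q. Equal length does not mean an equal threshold. The lowest −log10 q left was 10.5 and 1.33 for Ser2P and 7.71 and 10.1 for Pol II. Weak peaks thus stayed in Ser2P replicate 2 and were cut from the other lists. Nothing in the labels says that replicates came from separate cultures, so the spread may be technical. With 2 libraries against 2, an exact permutation test cannot go below p = 0.333.

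Edge peaks were found at 8 of 15 intestinal epithelial marker genes in all 4 libraries, at 1 of 15 blood cell markers, at 5 of 15 neuron markers and at 0 of 15 fibroblast markers, against 42.5% of all protein-coding genes. Both antibodies lay within 1 kb of all 20 small nuclear RNA genes read, a class transcribed mainly by Pol II that was found in all 4 libraries. Of 14 nuclear and host long noncoding RNAs, 12 had a summit within 1 kb in all 4 libraries, and Ser2P replicate 2 was the library that lacked the other 2, SNHG12 and GAS5.

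Ser2P peaks stood apart from Pol II peaks beyond the gene. The flank held 14.3% and 11.1% of the peaks of the 2 Ser2P libraries, against 4.30% and 5.04% in the 2 Pol II libraries. The groups did not overlap, and the means differed by 8.08 percentage points (12.7% ± 2.26 for Ser2P and 4.67% ± 0.520 for Pol II, SD, n = 2 each; exact permutation p = 0.333, the smallest possible). At equal list length the flank held 9.75% and 11.1% of Ser2P peaks and 2.92% and 2.72% of Pol II peaks. The edge share was 39.1% and 59.0% for Ser2P and 52.6% and 47.1% for Pol II, and the interior share was 32.1% and 20.6% for Ser2P and 22.1% and 24.2% for Pol II. For both of these the 2 Ser2P libraries lay on either side of Pol II (exact permutation p = 1 each). At equal length the Ser2P edge shares were 62.1% and 59.0%, below the Pol II shares of 66.0% and 67.0%, and the Ser2P interior shares of 18.6% and 20.6% lay above the Pol II shares of 17.2% and 16.9%.

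The difference beyond the gene lay on the downstream side. Ser2P had 3370 and 1070 downstream peaks and 543 and 167 upstream peaks, or 6.21 and 6.41 downstream peaks for each upstream peak. Pol II had 396 and 614 downstream peaks and 283 and 354 upstream peaks, or 1.40 and 1.73. The space read was similar on both sides, 35.1 Mb downstream and 37.8 Mb upstream. At equal length the ratio was 6.17 and 6.41 for Ser2P and 1.17 and 1.15 for Pol II (exact permutation p = 0.333 with either set of lists). The unnumbered Pol II library and the 2 Tyr1P libraries, with 35424 to 38485 peaks, gave 2.39, 2.28 and 2.66 with their full lists and 1.05, 0.994 and 1.00 at equal length. Only the 2 Ser2P libraries among these 7 kept a ratio above 2 at equal length, where the thresholds of the lists differ. With every list cut at a −log10 q of 5, the ratio was 6.16 and 5.96 for Ser2P and 1.16 and 1.46 for Pol II. It was then 1.72 for the unnumbered Pol II library and 1.70 and 1.97 for Tyr1P.

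**Figure D1:**
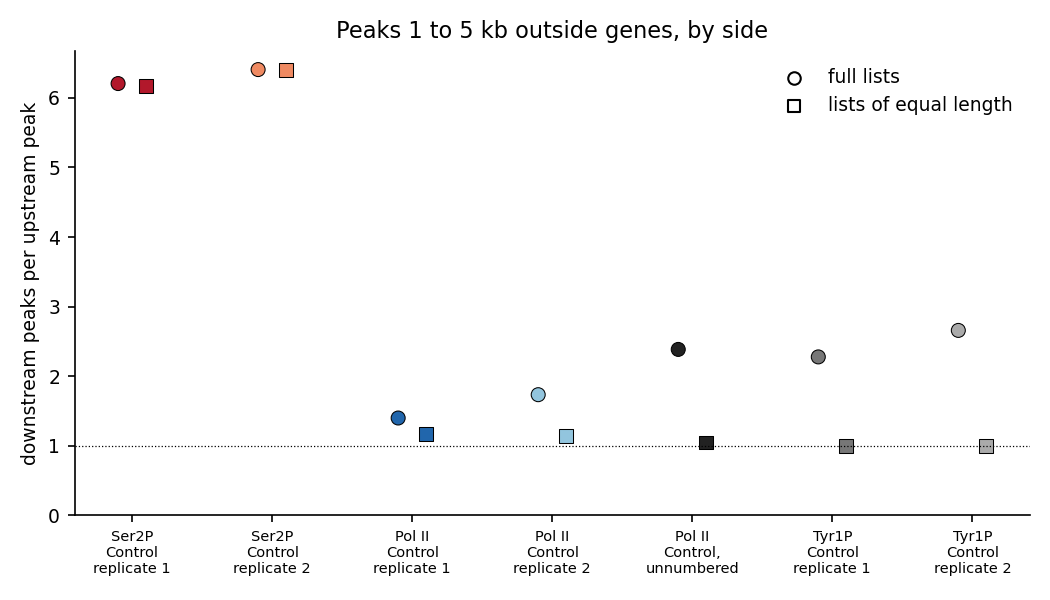
Downstream peaks per upstream peak (y axis, linear) in each Control library (x axis), for summits more than 1 kb and up to 5 kb outside genes of known strand; circles are full lists, squares are lists of equal length and the dotted line marks 1. The 2 Ser2P libraries lie between 6.17 and 6.41 under both, and the other 5 libraries lie between 0.994 and 2.66.

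Ser2P summits clustered just past the annotated gene end. In genes of at least 10 kb the fullest 0.5-kb bin was 0.5 to 1 kb past the end in all 4 libraries. It held 1098 and 454 Ser2P summits and 100 and 192 Pol II summits. Up to 1 kb past an end, a summit was counted if no gene start lay within 1 kb. Farther out it had to lie outside all protein-coding genes, with no gene start facing it within 15 kb. The rule thus changes at the outer limit of the fullest bin, and the place of that bin may follow in part from it. Per 1000 peaks, 111 and 93.3 Ser2P summits lay within 5 kb past a gene end, against 17.7 and 25.2 Pol II summits (exact permutation p = 0.333). Ser2P was denser past the end than before it, with 1.93 and 2.19 summits in the 5 kb past the end for each summit in the 5 kb before it, and Pol II with 1.12 and 1.22. Among summits up to 15 kb past the end, the median distance was 1.78 and 1.27 kb for Ser2P and 4.69 and 3.60 kb for Pol II. In the unnumbered Pol II library and the 2 Tyr1P libraries the ratio of past to before was 1.59, 1.67 and 1.69. Their median distances were 2.19, 2.53 and 2.10 kb, and 44.4, 42.7 and 51.1 summits per 1000 peaks lay within 5 kb past an end. These libraries, with longer lists than numbered Pol II, lay between it and Ser2P on each measure. None of these measures was repeated at equal list length. Genes of known strand and at least 5 kb were divided from start to end into 10 bins of equal length, and interior summits were counted. Summits within 1 kb of an end were left out, which shortens the first and last bins and can empty them in short genes. The bin nearest the gene end held 13.0% ± 0.248 of these Ser2P summits and 7.62% ± 0.601 of these Pol II summits (SD, n = 2 each; exact permutation p = 0.333). The bin nearest the start held 14.6% ± 3.24 for Ser2P and 15.8% ± 0.547 for Pol II (SD, n = 2 each; exact permutation p = 1), so the antibodies were not separated there.

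**Figure D2:**
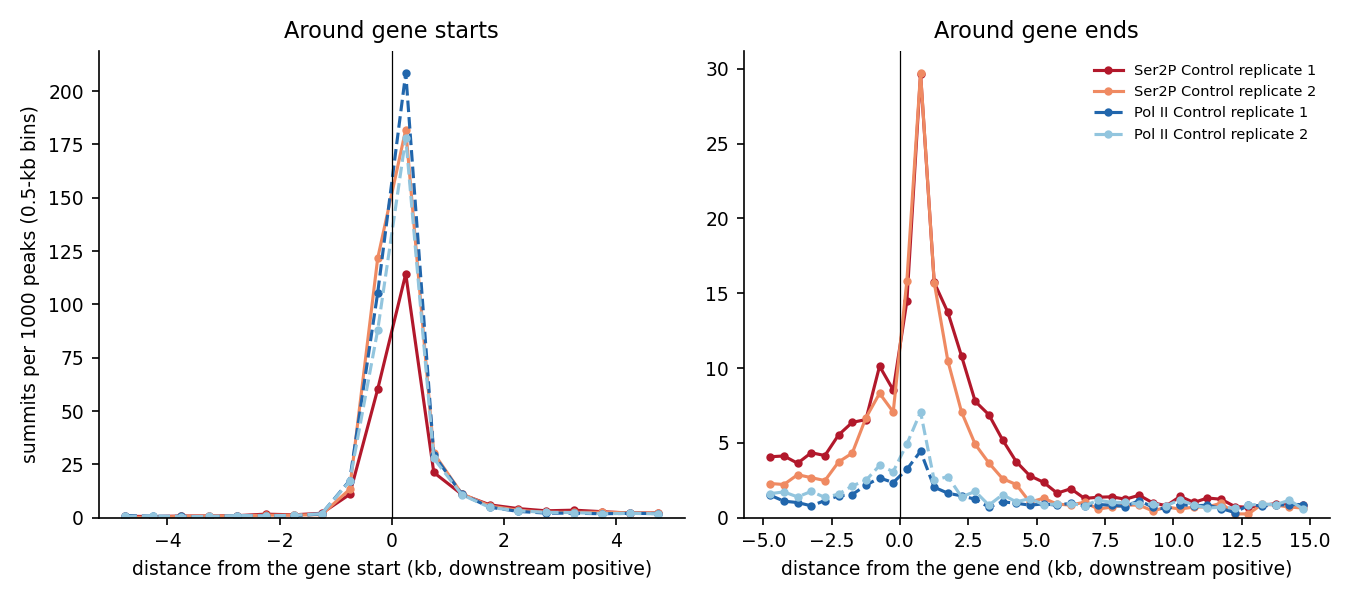
Summits per 1000 peaks of the library (y axes, different scales) in 0.5-kb bins around the starts (left) and ends (right) of genes of known strand and at least 10 kb, by distance in kb with the downstream direction positive. Solid lines are the 2 Ser2P libraries and dashed lines the 2 Pol II libraries. At ends both Ser2P lines peak 0.5 to 1 kb past the end, where they stand above both Pol II lines. Summits more than 1 kb past an end were counted under a stricter rule. The 4 lines come close far past the end but not 5 kb before it (4.08 and 2.29 for Ser2P, 1.51 and 1.62 for Pol II).

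Counted by gene, Ser2P without Pol II was most frequent at ends and downstream, and Pol II without Ser2P at starts. A downstream Ser2P peak in both libraries with no downstream Pol II peak in either was found at 622 of 15813 genes (3.93%), and the reverse at 65 (0.411%). At ends the counts were 642 genes (4.06%) with Ser2P alone and 42 (0.266%) with Pol II alone. At starts they were 99 genes (0.626%) with Ser2P alone and 545 (3.45%) with Pol II alone, beside 6399 (40.5%) with both antibodies in all 4 libraries. Upstream the counts were 57 (0.36%) with Ser2P alone and 83 (0.525%) with Pol II alone. In the interior 581 of 18725 genes (3.1%) carried Ser2P alone and 536 (2.86%) Pol II alone. This interior order turned at −log10 q of at least 5 (382 and 465 genes), without Ser2P replicate 1 (657 and 1527) and without Pol II replicate 1 (630 and 1052). Without regard to strand, 994 of 19974 genes (4.98%) had Ser2P alone and 180 (0.901%) Pol II alone in the flank, and 222 (1.11%) and 517 (2.59%) at an edge. Both antibodies had peaks in all 4 libraries at 8488 genes at an edge (42.5%), 1648 in the interior (8.8%) and 382 in the flank (1.91%). By side this was 287 genes at ends (1.81%), 66 upstream (0.417%) and 172 downstream (1.09%), so Ser2P alone outnumbered shared peaks at ends and downstream but not at starts. When the second antibody had to be absent from the whole gene and 5 kb around it, Pol II alone led in the flank (55 genes with Ser2P alone and 72 with Pol II alone) and in the interior (68 and 273). These counts follow from the rule and carry no test.

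Lists of equal length kept each of these directions except upstream. They gave 569 genes (3.6%) with Ser2P alone and 33 (0.209%) with Pol II alone downstream, 679 (4.29%) and 25 (0.158%) at ends, and 154 (0.974%) and 1043 (6.6%) at starts. In the interior they gave 537 (2.87%) and 390 (2.08%), and upstream 46 (0.291%) and 43 (0.272%). In the flank they gave 899 (4.5%) and 105 (0.526%), and at edges 349 (1.75%) and 1023 (5.12%). Shared peaks of all 4 libraries then stood at 7696 genes at edges (38.5%), 1202 in the interior (6.42%) and 176 in the flank (0.881%), and by side at 5832 starts (36.9%), 141 ends (0.892%), 46 upstream (0.291%) and 68 downstream (0.43%). Without Ser2P replicate 2, the shallower library, 2178 genes had Ser2P alone downstream and 2179 at ends. The end and downstream sets shared 25 genes, 3.89% of the first and 4.02% of the second.

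**Figure D3:**
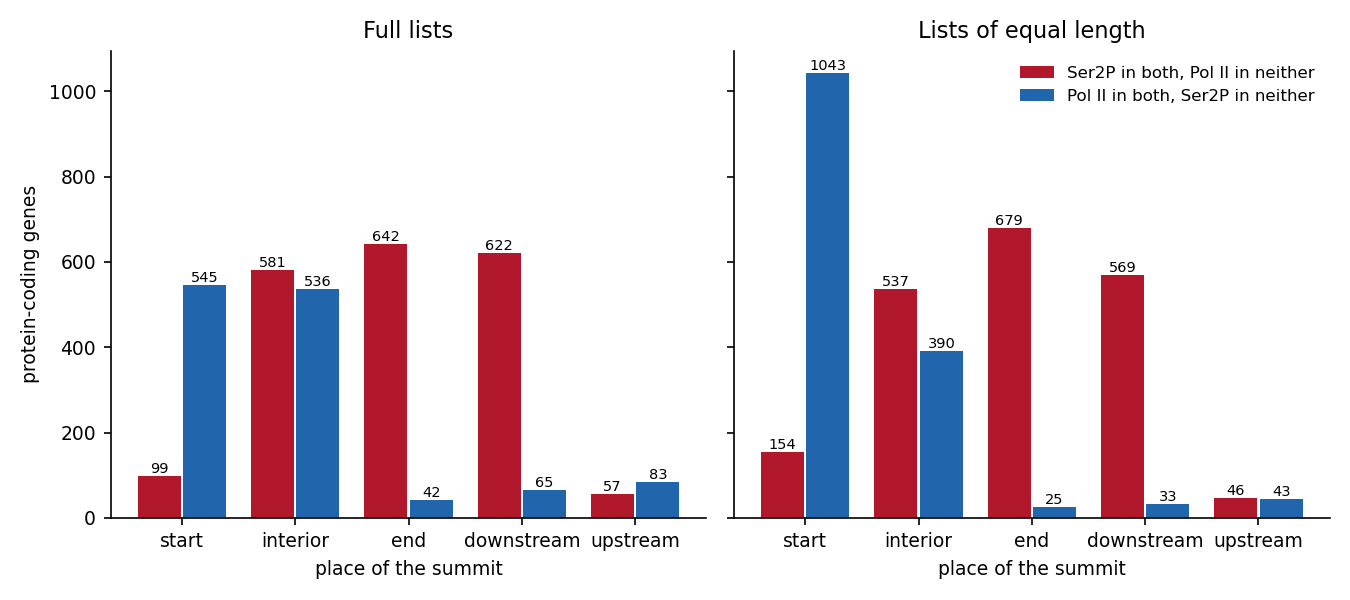
Protein-coding genes (y axis) with Ser2P in both libraries and Pol II in neither (left bar of each pair) or the reverse (right bar), by place of the summit (x axis), for full lists (left) and lists of equal length (right). Ser2P alone leads at ends (642 against 42 genes) and downstream (622 against 65), and Pol II alone leads at starts (99 with Ser2P against 545 with Pol II).

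Of the 8 highest-ranked flank peaks with Ser2P alone, 5 lay past a gene end. Fold enrichment at the summit, as the authors deposited it, is a peak's own value within its list. At BTF3 (a subunit of the nascent polypeptide-associated complex, chromosome 5, 73498442 to 73505667) the Ser2P summits had folds of 7.88 and 9.38 and lay 1073 and 1003 bp past the gene end. At PSAT1, an enzyme of serine synthesis (chromosome 9, 78297125 to 78330093), the folds were 3.63 and 4.95 and the summits lay 1017 and 1119 bp past the end. One peak with folds of 2.85 and 3.78 lay between the ends of ZNF79, a zinc finger gene, and RPL12, a ribosomal protein gene. DNMBP, a guanine nucleotide exchange factor for Cdc42, had folds of 3.49 and 4.56 at 1468 and 1442 bp past its end. One peak between LMTK3 and CYTH2 had folds of 2.94 and 3.70. The other 3 of the 8 lay upstream of a gene start, at KMT2E, a histone methyltransferase family gene, MYO1G, a myosin gene, and RPE65, the retinoid isomerohydrolase gene of the eye. Each of these 3 summits lay within 1 kb of a noncoding gene (KMT2E-AS1, SNHG15 and LOC124904198). In the reverse direction the highest-ranked flank peaks with Pol II alone were at TEX2, HSPA1B and RPS6KA4, and the last of these is also called for Ser2P alone at its end, with folds of 8.68 and 8.49. The first 2 of these lay at the small nucleolar RNA host genes SNHG25 and SNHG32.

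Several of these highest-ranked calls had a Pol II summit close by, on the other side of the 1-kb limit. At BTF3 the nearest Pol II summits lay 73 and 95 bp from the Ser2P summit, at PSAT1 46 and 129 bp, and at ZNF79 and RPL12 95 and 115 bp. Of the 24 highest-ranked peaks over edge, interior and flank, 12 had a numbered Pol II summit within 1 kb. Among all distinct Ser2P-alone peaks this held for 15 of 195 at edges, 20 of 571 in the interior and 40 of 847 in the flank. For the 569 distinct downstream peaks it held for 23 (4.04%), and 89.5% had no numbered Pol II summit within 5 kb.

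The highest-ranked downstream genes with no numbered Pol II summit within 5 kb of either Ser2P summit were then read, by a rule added after the ranking had been seen. They were led by DNMBP, CLPTM1L, NBL1 with MICOS10-NBL1, ETNK2 with SOX13, TFRC, CTDSPL2, UPK3B and PLIN3. At TFRC, the transferrin receptor gene (chromosome 3, 196049284 to 196082090, minus strand), Ser2P summits with folds of 4.07 and 5.44 lay 1462 and 1148 bp past the end. The nearest Pol II summits lay 34.2 and 21.5 kb away, while Pol II edge peaks of the same gene had folds of 25.1 and 24.3. At CLPTM1L, a membrane protein gene (chromosome 5, 1317752 to 1345099, minus strand), Ser2P had folds of 6.03 and 6.26 at 1135 and 1106 bp past the end, and the nearest Pol II summits lay 21.6 kb away in both libraries. The unnumbered Pol II library had a summit 142 bp from the Ser2P summit at TFRC, 160 bp at CLPTM1L and 106 bp at DNMBP. Both Tyr1P libraries had one within 281 bp at these 3 genes.

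Ends of genes gave a similar picture, again with the 1-kb limit at the top of the ranking. This ranking by side was chosen after values had been seen. At HDGF, a growth factor gene, Ser2P summits lay 724 and 814 bp past the end with folds of 5.89 and 6.93, and Pol II summits lay 339 and 358 bp from them. At H1-2, an intronless histone gene (chromosome 6, 26055740 to 26056470), Ser2P lay 180 and 198 bp past the end with folds of 7.84 and 7.34, and Pol II lay 61 and 71 bp from the start with folds of 10.5 and 9.12. The gene is shorter than 1 kb, so the summits of both antibodies lay within 1 kb of its start and of its end. Each summit counted only for the nearer of these. By that rule alone the gene is called for Ser2P at its end and for Pol II at its start. TIMP1, an inhibitor of matrix metalloproteinases, carried Ser2P 532 and 594 bp past its end with folds of 7.73 and 8.25, and the nearest Pol II summits were 4849 and 4873 bp away. With no numbered Pol II summit within 5 kb, OSBPL5, NIFK, MKNK1, VPS39 and COMMD6 ranked highest. MKNK1, a kinase of the translation factor eIF4E, had Ser2P folds of 8.31 and 7.35 at 609 and 610 bp past its end.

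In the interior the 8 highest-ranked genes with Ser2P alone included SFPQ, FOXO3, SF3B3, MAGED2, RSPH10B2, YJEFN3 and MAP3K11. SFPQ, a splicing factor gene, had Ser2P folds of 4.27 and 5.61 at 1108 and 1135 bp inside the gene, and Pol II summits 164 and 156 bp away counted as edge peaks. FOXO3, a forkhead transcription factor gene, had Ser2P folds of 5.48 and 6.05 at 1175 and 1169 bp from its start, with Pol II summits 305 bp away in both libraries. Both calls have Pol II on the other side of the 1-kb limit. MAP3K11, a kinase of the JNK pathway, had folds of 5.34 and 5.42 at 6977 and 7019 bp from the start, with the nearest Pol II summits 6936 and 6904 bp away. RSPH10B2 has a near-identical copy, so its reads may be split and its call is uncertain. With Pol II alone, FRMD4A, INTS3 and TSC22D3 ranked highest. INTS3, an Integrator subunit gene, had Pol II folds of 11.03 and 15.5 at 29616 and 29619 bp from its start, and the nearest Ser2P summits were 17.6 and 17.7 kb away.

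At either edge, without regard to strand, the 8 highest-ranked peaks with Ser2P alone were at CD4, GRIN2D, RUNDC3A, AGBL2, SPMIP5 with HSPA12A, BTBD19, PHLDB2 and FOXD4L4. At CD4, a T cell co-receptor gene, Ser2P summits with folds of 3.96 and 5.24 lay 868 and 963 bp from one end of the gene, and Pol II summits lay 182 and 261 bp from them beyond the 1-kb limit. GRIN2D, a glutamate receptor subunit gene, was called in the same way, with Pol II summits 136 and 178 bp away. PHLDB2 carried Ser2P 695 and 651 bp past its end, and FOXD4L4 belongs to a family of near-identical genes, so its call is uncertain. RPL12, NPM1 and DUSP5 ranked highest with Pol II alone. NPM1, a nucleolar chaperone gene, had Pol II folds of 16.7 and 17.8, with Ser2P summits 583 and 460 bp away and outside the 1-kb window.

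Starts with one antibody alone are shown by their promoter sequence, since there the position of the summit can be read against the start. Windows from RefSeq on GRCh38.p14 run from 250 bases before the start to 50 after it, and base 251 is the start. AGBL2 (chr11:47715320-47715619, minus strand) and SPMIP5 (chr10:116670233-116670532, minus strand) are the highest-ranked of the 28 genes, among 99 with Ser2P alone at the start, whose summits lie in the window in both libraries. RPL12 (chr9:127451357-127451656, minus strand) and RPL10A (chr6:35468151-35468450, plus strand) are the highest-ranked of the 7 ribosomal protein genes, among 14 with Pol II alone at the start, chosen by the same rule. Each window is written 5′ to 3′ on the strand of its gene. Capitals mark the GC box GGGCGG, the CCAAT box CCAAT and the TATA box TATAAA on either strand, and the longest run of at least 5 pyrimidines within 5 bases of the start.
AGBL2: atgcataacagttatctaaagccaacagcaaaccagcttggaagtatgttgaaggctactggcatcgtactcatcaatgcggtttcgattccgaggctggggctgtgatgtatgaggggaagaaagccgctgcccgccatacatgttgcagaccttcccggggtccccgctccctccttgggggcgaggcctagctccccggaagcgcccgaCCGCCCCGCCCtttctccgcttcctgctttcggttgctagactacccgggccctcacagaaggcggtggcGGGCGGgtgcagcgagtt
SPMIP5: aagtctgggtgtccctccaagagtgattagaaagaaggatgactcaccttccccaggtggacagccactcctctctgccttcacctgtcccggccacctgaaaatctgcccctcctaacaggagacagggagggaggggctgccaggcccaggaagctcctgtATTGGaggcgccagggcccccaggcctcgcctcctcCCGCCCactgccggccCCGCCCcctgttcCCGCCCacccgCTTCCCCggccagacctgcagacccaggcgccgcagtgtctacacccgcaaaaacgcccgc
RPL12: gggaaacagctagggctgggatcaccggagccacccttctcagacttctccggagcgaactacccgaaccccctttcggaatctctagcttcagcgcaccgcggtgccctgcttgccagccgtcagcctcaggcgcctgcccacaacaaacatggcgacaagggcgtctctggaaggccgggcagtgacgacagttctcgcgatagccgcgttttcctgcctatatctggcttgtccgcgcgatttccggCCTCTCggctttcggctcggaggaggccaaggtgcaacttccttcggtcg
RPL10A: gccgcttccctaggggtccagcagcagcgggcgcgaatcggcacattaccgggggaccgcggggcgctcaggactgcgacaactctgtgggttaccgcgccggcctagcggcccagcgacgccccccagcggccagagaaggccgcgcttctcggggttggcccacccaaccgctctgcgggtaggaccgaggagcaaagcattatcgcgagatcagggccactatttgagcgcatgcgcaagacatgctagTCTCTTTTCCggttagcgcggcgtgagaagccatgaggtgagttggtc

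At AGBL2, a carboxypeptidase gene, the Ser2P summits had folds of 5.33 and 6.46 at bases 289 and 257 of the window. No numbered Pol II summit lay within 51.9 kb, while the unnumbered Pol II library had a summit 34 bp away. SPMIP5, a sperm microtubule protein gene, had folds of 5.15 and 6.59 at bases 284 and 81. The same summits lay 943 and 740 bp past the end of HSPA12A on the same strand, so the peak may belong to either gene. From the replicate 1 summit, the unnumbered Pol II library had a summit 202 bp away. The nearest Tyr1P summits lay 15146 and 51 bp away. RPL12 had Pol II folds of 11.6 and 10.6 at bases 292 and 291, in a peak that also counts for the start of the divergent gene LRSAM1, and RPL10A had 10.9 and 9.94 at bases 293 and 287. Both Ser2P windows hold 3 GC boxes, of which 2 overlap at AGBL2, and both ribosomal windows hold none. A GC box was present in 54.5% of the 99 windows with Ser2P alone, in 62.2% of the 545 with Pol II alone and in 58.5% of all 15812 windows of protein-coding genes. A TATA box was present in 10.1%, 6.06% and 9.64% of these windows, and a CCAAT box in 26.3%, 35.2% and 36.3%. The pyrimidine run, a known mark of ribosomal protein genes, began at base 251 in RPL12 and base 253 in RPL10A and was present in 90.3% of the 62 ribosomal windows and 35.3% of all windows. These matches describe the letters and are not binding sites.

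Ribosomal protein genes made up part of the starts with Pol II alone. All 62 of these genes with known strand had a Pol II start peak in both libraries, and 27 had Ser2P there in both. Among all 9178 genes with a Pol II start peak in both libraries, 69.7% had Ser2P there in both. At 14 of the 62 ribosomal protein genes (22.6%) Pol II was present and Ser2P had no start peak in either library. This held for 545 of the 9178 genes with a Pol II start peak in both libraries. That is the base to compare, since all 62 ribosomal protein genes had such a peak. The share of 3.45% is over all genes with known strand, with or without Pol II at the start. From the Pol II start summit of these 14 genes the nearest Ser2P summit lay 1.45 to 4.98 kb away in replicate 1 and 2.01 to 5.41 kb away in replicate 2, with medians of 3.77 kb in replicate 1 and 3.75 kb in replicate 2. At RPL12 the distances were 4979 and 4991 bp, and its Ser2P peak was the one past its end. RPL10A and RPS27A also carried Ser2P alone at their ends, at 922 and 803 bp and at 273 and 272 bp past the end. These were 2 of the 62 ribosomal protein genes (3.23%), against 4.06% of all genes. More of the 62 carried both antibodies at the end. Ser2P had an end peak in both libraries at 24, Pol II at 19, and all 4 libraries had one at 17. At RPL10A the nearest Pol II summits lay 258 and 107 bp from the Ser2P summit, across the 1-kb limit. Of all 545 genes with Pol II alone at the start, 527 had a start peak in the unnumbered Pol II library and 536 in both Tyr1P libraries. Their Pol II start peaks ranked lower than those of all 9178 genes with a Pol II start peak in both libraries, with a median percentile of 45.7 against 74.7.

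Genes of the transcription machinery were read as fixed lists, which were chosen with earlier results of these data known, and their shares stand beside the background of all genes given above. Of 23 elongation factor genes with known strand, 3 (13.0%) had Ser2P alone downstream, 2 (8.70%) at the end, and 0 had Pol II alone at either place. IWS1, which binds the elongation factor SPT6, had Ser2P folds of 6.12 and 5.49 at 1346 and 1386 bp past its end, and its nearest Pol II summits were 46974 and 46934 bp away. CTR9, a subunit of the PAF1 complex, had folds of 3.01 and 4.78, with a Pol II summit of replicate 1 827 bp away, and RTF1, an elongation factor linked to that complex, had 3.12 and 3.57. PAF1 itself and SUPT16H, a subunit of the histone chaperone FACT, carried Ser2P at their ends. Among 22 cleavage and termination factor genes, 3 (13.6%) had Ser2P alone downstream and 0 at the end. XRN2, the exonuclease that degrades the transcript behind the polymerase after cleavage (chromosome 20, 21303331 to 21389825), had folds of 4.19 and 4.85 at 1694 and 1764 bp past its end, with numbered Pol II summits 88350 and 88322 bp away. The unnumbered Pol II library had a summit 56 bp away at IWS1 and 205 bp away at XRN2. RBBP6 and PPP1R8 were the other 2 cleavage and termination factor genes with Ser2P alone downstream. CPSF2 and CSTF1 (9.09% of 22) had Pol II alone at their starts, against 3.45% of all genes.

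In a list of 13 serine 2 kinases, their cyclins and partner proteins, 3 (23.1%) had Ser2P alone in the flank, against 4.98% of all genes. These were CCNT1, LARP7 and AFF4, a scaffold of the super elongation complex. Of the 12 list members with known strand, 1 (8.33%) had Ser2P alone downstream and 0 at the end, against 3.93% and 4.06% of all genes. CCNT1, the cyclin of P-TEFb, had folds of 3.90 and 5.18 at 1288 and 1271 bp past its end. LARP7, which holds P-TEFb in the inactive 7SK complex, had 3.64 and 3.94 at 2146 and 2005 bp. A flank peak past a gene end did not count as downstream if a gene start, or a gene of unknown strand, faced it within 5 kb. Of 18 Integrator subunits, INTS1 and INTS9 (11.1%) had Ser2P alone in the interior and INTS3 (5.56%) had Pol II alone there. The shares of all genes were 3.1% and 2.86%. Of the 13 with known strand, INTS11 (7.69%) had Pol II alone at its start, against 3.45% of all genes. Among these 13, 0 had Ser2P alone at the end and 0 downstream. Of 11 phosphatases, SSU72 (9.09%) had Ser2P alone in the interior. Of the 9 with known strand, CTDSP1 (11.1%) had Ser2P alone at the start and PPP1R10 (11.1%) had Pol II alone there. The shares of all genes at starts were 0.626% and 3.45%. Among these 9, 0 had Ser2P alone at the end and 0 downstream. These groups are small, and no share of theirs was tested.

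Immediate early genes, which respond to growth factors within minutes, were one group with Ser2P at the end. Of 36 with known strand, 19 had an end peak of Ser2P in both libraries and 12 had one of Pol II in both. The shares of all genes with known strand were 7.16% for Ser2P and 2.45% for Pol II. Downstream, 0 of the 36 had Ser2P alone. At the end 5 (13.9%) had Ser2P alone, against 4.06% of all genes. These were JUND, DUSP2, NR4A1, BTG2 and PPP1R15A. NR4A1, an orphan nuclear receptor gene (chromosome 12, 52022832 to 52059503), had Ser2P folds of 4.43 and 4.06 at 692 and 826 bp past the end, and Pol II summits lay 8719 and 8707 bp away. BTG2, an antiproliferative gene that is also a p53 target, had 3.54 and 3.63 at 841 and 927 bp. SPRY4 and DUSP5 (4.17% of 48) went the other way, with Pol II alone at an edge, against 2.59% of all genes. DUSP1 (2.78% of 36) had Pol II alone downstream, against 0.411% of all genes. Of 19 p53 targets, BAX and BTG2 (10.5%) had Ser2P alone at the end, and SESN2 and PPM1D (10.5%) downstream. In the interior, MDM2 and TIGAR (9.52% of 21) had Ser2P alone and ZMAT3 (4.76%) had Pol II alone, against 3.1% and 2.86% of all genes.

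Other housekeeping groups gave few cases each, to be read against 4.06% of all genes with Ser2P alone at the end and 3.93% downstream. Of 18 glycolysis genes, 0 had Ser2P alone at the end and 0 downstream. Of 24 genes of splicing factors with known strand, TRA2B, PTBP1 and SF3B1 (12.5%) had Ser2P alone at the end and SRSF4 and HNRNPD (8.33%) downstream. Of 21 translation factor and chaperone genes, EEF1B2, EEF2 and EIF5A (14.3%) had Ser2P alone at the end and CCT2 (4.76%) downstream. In the same list NPM1 and HSPA8 (9.52%) had Pol II alone at the start, against 3.45% of all genes. Among 58 replication-dependent histone genes, whose transcripts end without a poly(A) tail, H1-2, H3C14 and H3C15 (5.17%) had Ser2P alone at the end. H1-2, H1-4 and H3C14 (5.17%) had Pol II alone at the start, and H2BC5 (1.72%) had Ser2P alone there. The shares of all genes at starts were 3.45% and 0.626%. In a short gene a summit within 1 kb of both ends counted only for the nearer, so start and end calls can lie close together. Histone copies are alike in sequence, so reads may be shared between them. Among marker lists, CDH1 in the flank (6.67% of 15) and CLDN3 at the end (12.5% of 8) were the intestinal epithelial genes with Ser2P alone. CD4 was the blood gene and COL1A1 the fibroblast gene, both at an edge, and SYN1 the neuron gene, in the interior (6.67% of 15 each). The shares of all genes were 4.98% in the flank, 1.11% at edges and 3.1% in the interior. Pol II alone was found in the interior at 1 of 13 intestinal epithelial (7.69%) and 2 of 15 fibroblast markers (13.3%), against 2.86% of all genes.

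Most genes with Ser2P alone beyond or at the end had Pol II at their starts. Of the 622 downstream genes, 541 (87.0%) had a Pol II start peak in both numbered libraries, and of the 642 end genes 551 (85.8%) did, against 58.0% of all genes with known strand. In the interior set it was 378 of 463 genes (81.6%). Only 20 of the 622 downstream genes and 21 of the 642 end genes had no base of a numbered Pol II peak in the gene or within 5 kb of it. From the Ser2P summit the nearest Pol II summit lay a median 21.8 and 19.2 kb away downstream, 10.0 and 8.46 kb at ends and 14.4 and 13.3 kb in the interior. These distances follow in part from the rule, which chose places without Pol II, and are given as a description.

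Pol II libraries with longer lists had peaks at part of these places. The unnumbered Pol II library, with 35424 peaks and 8.06 fragments per kb, had a downstream peak at 248 of the 622 genes (39.9%), and both Tyr1P libraries had one at 220 (35.4%). At ends these counts were 259 (40.3%) and 222 (34.6%), and in the interior 234 (40.3%) and 211 (36.3%). None of these 3 libraries had a peak in the zone at 186 downstream, 206 end and 160 interior genes. The median distance to the nearest summit of the unnumbered library was 2.42 kb downstream and 1.73 kb at ends, shorter than to either numbered library. How much of the numbered libraries' absence follows from their depth was not tested. At equal list length a downstream peak was present at 954 and 1037 genes in the 2 Ser2P libraries, at 177 and 162 in the numbered Pol II libraries and at 158 in the unnumbered one.

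**Figure D4:**
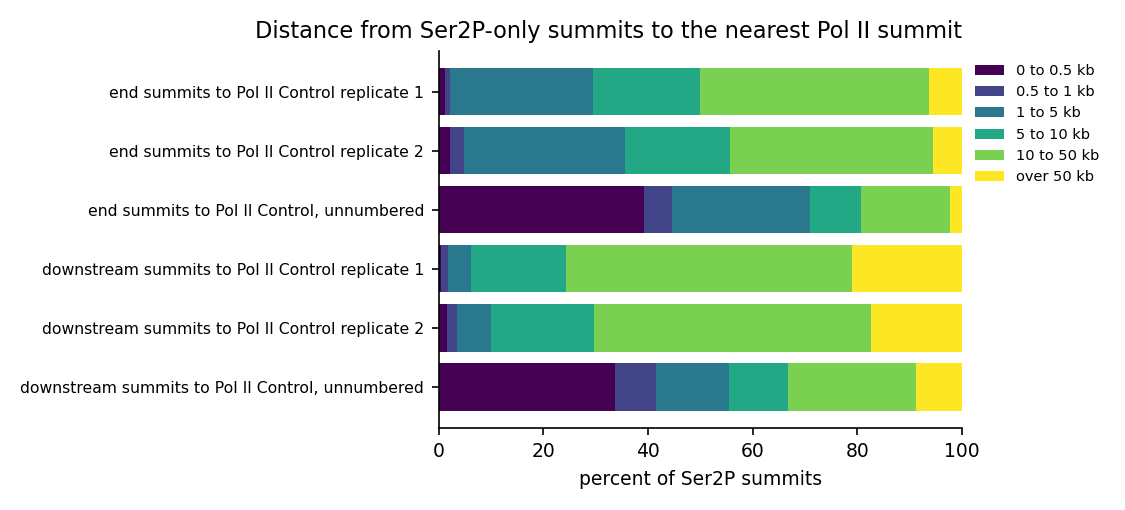
Percent of distinct Ser2P-alone summits (x axis) by distance to the nearest Pol II summit (colours, in kb), for summits at ends and downstream and for each Pol II Control library (rows). Downstream, 0.527% and 1.58% of Ser2P summits had a summit of numbered Pol II libraries within 0.5 kb, and 33.7% had one of the unnumbered library.

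The 2 antibodies shared a large part of their peaks. Of Ser2P peaks, 43.4% in replicate 1 and 72.6% in replicate 2 shared at least 1 bp with a Pol II peak of the same replicate number, and 68.3% and 61.4% did at equal length. Ser2P replicate 1 covered nearly all of replicate 2, with 97.8% of the peaks of replicate 2 sharing a base with it.

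The share of genes with Ser2P at the end was larger in short genes and in genes with a higher-ranked Pol II start peak. Among the 9178 genes with a Pol II start peak in both libraries, genes were split into 5 groups of equal size by the mean rank of that peak. A downstream Ser2P peak in both libraries was present in 6.26% of genes of the lowest group, 8.17%, 7.95% and 9.59% of the next 3 and 11.9% of the highest. For Pol II the downstream share was 2.07% in the lowest group and 4.03% in the highest. By length, Ser2P end peaks were present in 17.4% of genes up to 5 kb and in 1.88% of genes over 200 kb, and Pol II end peaks in 7.42% and 0.171%. Downstream Ser2P peaks varied less with length, from 5.80% to 9.85%. In genes over 200 kb the interior held Ser2P in 17.2% and Pol II in 38.7%, while in genes of 5 to 20 kb it held Ser2P in 11.6% and Pol II in 8.16%. These shares are across genes, which are not independent replicates, and were not tested.

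**Figure D5:**
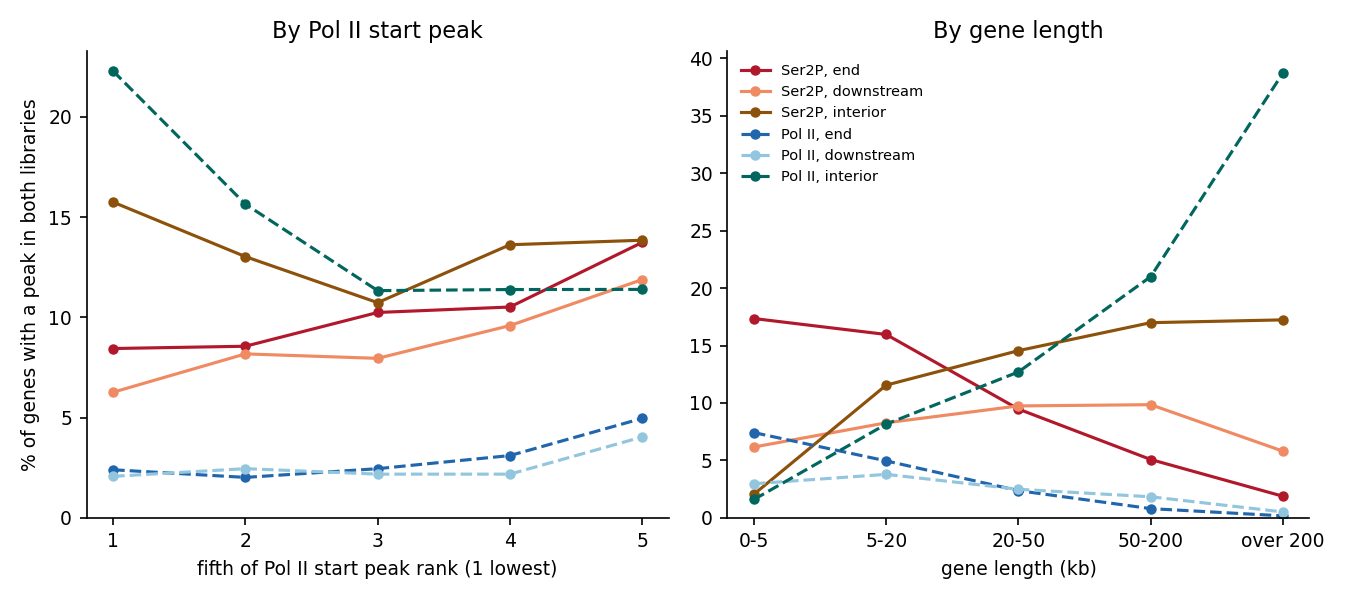
Percent of genes with a peak in both libraries of an antibody (y axes, different scales), for genes with a Pol II start peak in both libraries, by the rank of that peak in 5 groups, 1 lowest (left) and by gene length in kb (right). Solid lines are Ser2P and dashed lines Pol II; the Ser2P end share is 17.4% in genes up to 5 kb and 1.88% in genes over 200 kb, and Pol II leads only in the interior, where it is 38.7% in genes over 200 kb.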

How the data were processed

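ChIP-seq peak lists of HCT116 INTS11-AID cells were used. The submitters' processing notes name build hg38 and MACS2 2.2.7.1, and also Bowtie2 2.3.4.1, Trim Galore 0.6.6, deepTools 3.5.1 and Picard 2.25.7; no source used here gives their options or says how inputs were used. Each library has its own list from the authors, so peaks were not pooled. Each deposited list gives a fold ratio at the summit, −log10 p and −log10 q values, and a score equal to 10 times the −log10 q, which was not used. The fold and −log10 p gave an estimate of depth, solved for 93.5% to 100% of peaks in the 7 lists read.

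The peaks read lay on chromosomes 1 to 22 and X. Any peak that overlapped an input peak by 1 bp or more was dropped (the inputs held 1579 and 1004 peaks), which took 0.696% to 2.03% of the 4 main lists. Gene positions came from RefSeq on GRCh38.p14, and strand from its promoter table for 79.2% of genes. Where genes overlap, a summit can count for each. Presence was counted per gene and library; the call rule was checked on simulated presence. Shares were compared with two-sided exact permutation tests. Genes are named as the 8 highest by mean percentile of −log10 q with Ser2P alone and the 3 highest in reverse, per class, plus list members; 1 interior gene so chosen is not reported here. Members, lists and the side of the gene were chosen with earlier results of these data known. Of 19 lists, 477 symbols were read. Alternatives were equal list length, a −log10 q of at least 5, input peaks kept, an edge of 500 bp, a flank of 10 kb, presence by any base, absence from gene and 5 kb, and each library left out. Analysis used Python 3.11.15, pandas 2.3.3, numpy 2.4.6 and matplotlib 3.10.9.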

Additional observations from a re-analysis of the deposited data

How the results depend on the processing

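The flank share difference of 8.08 percentage points kept its direction under every alternative run, from 6.48 without Ser2P replicate 1 to 10.6 with an edge of 500 bp. Edge and interior shares did not: leaving out 1 library gave -10.8 to 9.12 points for edges and -2.53 to 8.96 for the interior, with the sign turned without Ser2P replicate 1 for both and without Pol II replicate 1 for edges (1.92). The peak number ratio was 0.615 to 1.49 with 1 library left out (0.962 without Pol II replicate 1) and 0.938 for −log10 q of at least 5; lists of equal length give it no value. Permuting within the replicate block left the flank difference at 8.08 with p = 0.5 (exact, the smallest possible). Differences between replicates 1 and 2 in summit counts per gene correlated at 0.00496 between the antibodies over 15355 genes. Counts of called peaks cannot show whether equal numbers mark a shared culture, so pairing is not known.

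With lists of equal length, Ser2P alone was found at 349 genes at edges and 154 at starts, and Pol II alone at 1023, 105, 1043, 25, 43 and 33 at edges, flanks, starts, ends, upstream and downstream. Requiring absence of the second antibody from the gene and 5 kb left 81, 68 and 55 genes with Ser2P alone at edges, interior and flank, and 226, 273 and 72 with Pol II alone, so that Pol II alone led in the flank and the interior. A −log10 q of at least 5 gave 382 interior genes with Ser2P alone and 465 with Pol II alone, an outer limit of 10 kb gave 333 flank genes with Pol II alone, and presence by any base gave 1010 end genes with Ser2P alone. Alternatives chosen after seeing the data required absence also from the unnumbered Pol II and both Tyr1P libraries, which left 55, 160, 320, 25, 206, 31 and 186 genes with Ser2P alone at edges, interior, flank, starts, ends, upstream and downstream. Another read Ser2P replicate 1 at the length of replicate 2 with Pol II whole, and gave 145, 267, 620, 62 and 392 at edges, interior, flank, starts and downstream.

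With 1 library left out, Ser2P alone ranged over 249 to 710 genes at edges, 630 to 3084 in the interior, 1036 to 3381 in the flank, 116 to 261 at starts, 664 to 2179 at ends, 61 to 297 upstream and 643 to 2178 downstream, each highest without Ser2P replicate 2. Pol II alone ranged over 554 to 2897, 557 to 1527, 204 to 401, 581 to 2743, 48 to 117, 89 to 173 and 77 to 149 in the same order, highest without Ser2P replicate 1 for the first 4 and without Pol II replicate 1 for the other 3. The cause of these moves was not tested, beyond that fewer libraries make the rule easier to meet. Of the recomputed values, 51 moved in size, 6 turned their direction and 133 did neither, though share differences among the last could change in size, as for edges. With no read totals, depth is an estimate, 2 libraries per antibody cannot pass an exact test, and an absent peak does not show absent Pol II.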
